A study of Rattus norvegicus with 6 samples.

Results

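Cytosolic ribosomal protein genes were examined in kidney RNA of male rats of 2 inbred strains, the Dahl salt-sensitive rat (Dahl S), whose blood pressure is known to climb when it eats much salt, and the Lewis rat. The members were the probe sets of an Affymetrix array whose single gene symbol begins with Rpl or Rps and a digit, or is Rplp0, Rplp1, Rplp2 or Rpsa. Of 71 probe sets that matched these names, 14 of the Rps6k kinases and 2 of pseudogenes were left out, which gave 55 probe sets of 48 genes, 33 of the large and 15 of the small ribosomal subunit, out of 31099 probe sets on the array. Per the labels, 3 Dahl S rats and 3 Lewis rats had eaten food with 8% NaCl for 8 weeks from an age of 5 weeks, and the kidney RNA of each rat was hybridized to 1 array. Neither strain is described as carrying a transgene or a drug treatment. Both strains received salt, and no rats on ordinary food were analysed here, so an inherited strain difference and a different response to salt cannot be told apart.

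Ribosomal proteins form the 2 subunits of the ribosome together with ribosomal RNA, and each ribosome holds about equal numbers of them. In mammals most of their messenger RNAs begin with a run of pyrimidines, through which TOR signalling and the RNA-binding protein Larp1 control their translation as a group. In the kidney, ribosome production and phosphorylation of the small subunit protein S6 are known to accompany growth of tubule cells after loss of renal mass.

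The deposited values were linear signal intensities, which were quantile-normalized on the log2(signal + 16) scale. The 2% trimmed mean of the deposited intensities was 205 to 250 on the Dahl S arrays and 119 to 230 on the Lewis arrays. A probe set was tested when it lay above the median of all normalized values on at least 3 of the 6 arrays. Strain differences were fitted with limma over all 15797 tested probe sets, and a probe set was called at a Benjamini-Hochberg adjusted p under 0.05. Log2 differences are Dahl S minus Lewis. The p-values rest on the spread between these 3 rats per strain, drawn by limma toward a variance trend fitted over all tested probe sets. Over all tested genes 9.04% were called higher and 7.62% lower. The array held 12 kidney tubule and glomerular markers, which include Umod and the sodium transporters. All 12 were tested, 1 was lower and none was higher in Dahl S. Their summed normalized signal was 43715 to 44484 on the Dahl S arrays and 46175 to 46545 on the Lewis arrays. None of the liver markers and 1 of the skeletal muscle markers was bright enough to be tested, and that one was not called.

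Most ribosomal protein probe sets were slightly higher in Dahl S kidneys after quantile normalization. Among the 48 tested member probe sets, 13 were called higher and 2 lower, while 33 did not pass the threshold. Over all tested probe sets 8.5% were called higher and 7.75% lower. The median difference of the members was 0.13 (quartiles 0.06 and 0.21, range -0.50 to 0.50), against 0.00 for all tested probe sets, and 43 of the 48 lay above 0. The signals of the 2 strains did not overlap for 25 members, 23 with every Dahl S array above every Lewis array and 2 with every Dahl S array below. Such separation was seen for 34.4% of all tested probe sets, 17.6% with Dahl S above and 16.9% with Dahl S below. The 13 higher calls depended on how the arrays were brought to one level: when each array was instead scaled to a common median, the members' median was -0.02, 20 of the 48 lay above 0, 1 was called higher and 2 were called lower. Under that scaling 7.62% of all tested probe sets were called higher and 7.58% lower. The calls also depended on the variance model. With quantile normalization but no variance trend, 1 member, Rpl6, was called higher and 1 lower, against 7.59% and 7.01% of all tested probe sets.

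**Figure D1:**
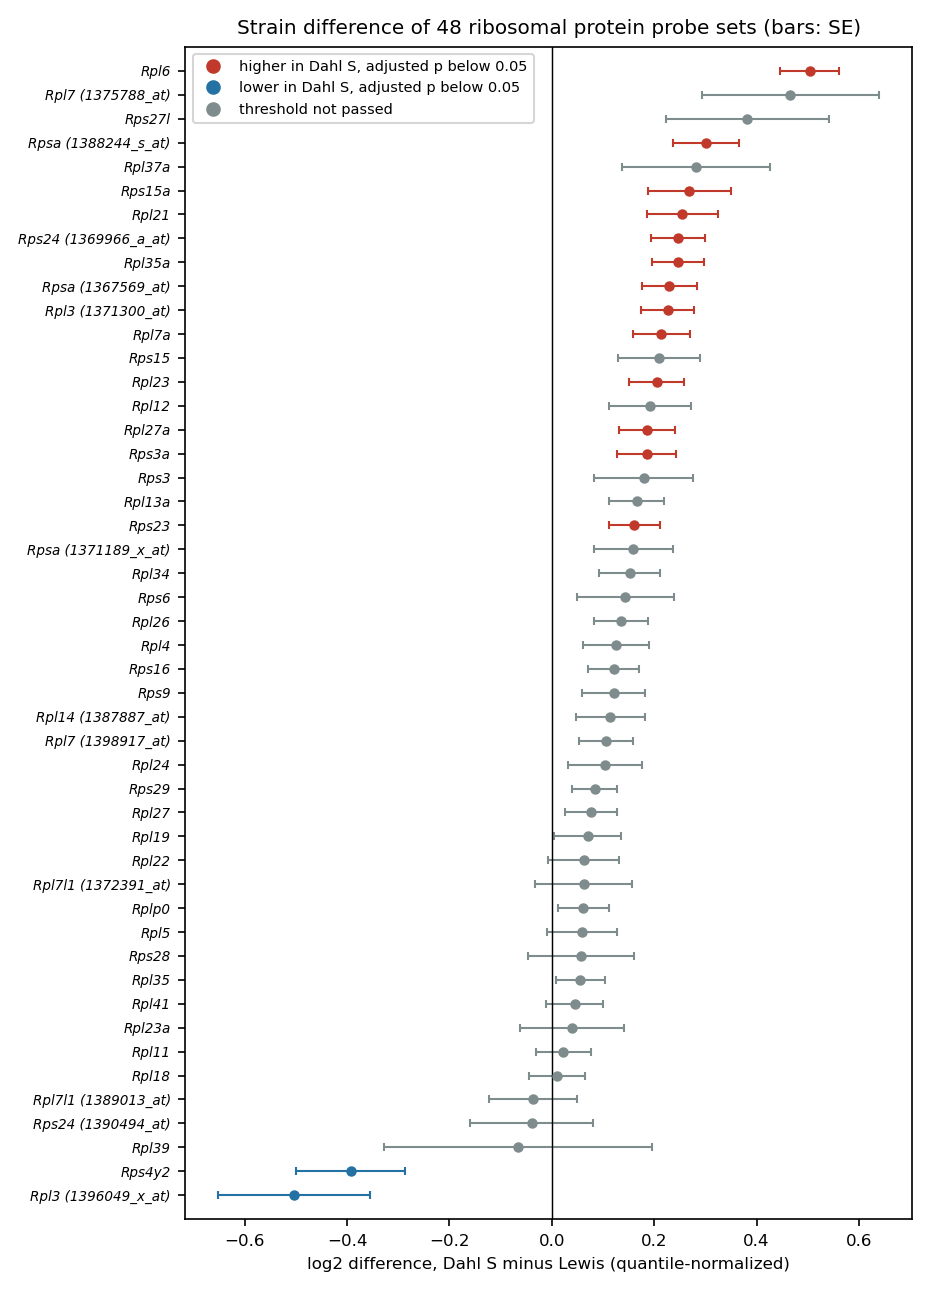
Log2 difference (Dahl S minus Lewis, quantile-normalized, horizontal axis) of each of the 48 tested ribosomal protein probe sets, with bars of 1 standard error; genes with several probe sets carry the probe set name. The 13 probe sets called higher (red) lie between 0.16 and 0.50 and the 2 called lower (blue) at -0.39 and -0.50, and 43 points lie right of 0.

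Counted by gene, with the brightest tested probe set standing for the gene, 12 of 42 genes were called higher and 1 lower. The shares over all genes were 9.04% higher and 7.62% lower. In the large subunit 7 of 28 genes were called higher and none lower, with a median of 0.11. In the small subunit 5 of 14 genes were called higher and 1 lower, with a median of 0.17. The difference between the subunits was not tested. Symbols for relatives of the standard proteins, which include Rpl7l1, Rps27l and Rps4y2, made up 3 of the 42 genes, of which none was called higher and 1 was called lower. Another 6 genes had no probe set bright enough to test: Rpl26l1, Rpl28, Rpl30, Rpl39l1, Rpl3l and Rps13. Rpl3l is known as a form of Rpl3 of heart and skeletal muscle. Rplp1, Rplp2, Rps4x, Rps19, Rps27, Rps27a, Rpl10 and Rpl22l1 had no probe set that met the rule.

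Sequence around the annotated start was read for the members to show what many of these genes share there. Of the 48 genes, 41 had a start window in the RefSeq promoter table of the GRCr8 assembly, and 34 of the 41 (82.9%) had a run of at least 8 C or T on the sense strand within 50 bases on either side of the start. Of all 33469 windows in that table, 36.5% had one. A run could lie wholly before or after the start, as in Rpl21 (19 bases, from base -25) and Rpl12 (8 bases, from base 36). Such a run need not begin the message. The windows shown belong to genes called higher that have a run (Rps24, Rpl35a, Rpl21, Rpl27a, Rpsa), to genes called higher with none in the window searched (Rpl6, Rpl3), and to the gene called lower (Rps4y2). Each reads 5′ to 3′ on the gene's strand, and capitals mark the longest pyrimidine run where it has 8 or more bases.
Rps24, chr16:96502-96531, plus strand: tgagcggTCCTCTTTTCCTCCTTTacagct
Rpl35a, chr11:81235006-81235035, minus strand: cgggtcttgCCTTCCTCTTTCCgccatctt
Rpl21, chr12:13386155-13386184, minus strand: gcgcagCCCCTCCCTCTTCCTTTCCgccgg
Rpl27a, chr1:172974567-172974596, plus strand: gtgggCTCCTCCCTCTTTCTTTTCTgccac
Rpsa, chr8:128728852-128728881, plus strand: ccggccgcccgTCCTTTCCgcgctaccctg
Rpl6, chr12:41011676-41011705, minus strand: tatttttacatcactagatggcgggtgaaa
Rpl3, chr7:113507976-113508005, minus strand: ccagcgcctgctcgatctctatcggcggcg
Rps4y2, chr4:183000895-183000924, plus strand: tgcgcgcgcagCTCTCCTCactcgcttgtg

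Most called and most uncalled genes had such a run. It was found in 9 of 12 genes called higher, in 20 of 23 that did not pass the threshold, in the 1 called lower and in 4 of 5 that were not tested. Rpl6, Rpl3 and Rps3a, all called higher, had none in their windows, and the window of Rps3a is not shown. For 17 of the 41 genes, the start used in the promoter table differed from the outer end of the gene in the RefSeq gene table, so another start may have a different window. Rps3a, whose longest run was 7 bases, was not among the 17. Rpl6 and Rpl3 were, with outer ends at 41012756 and 113508115, outside the windows searched. Whether a run lies at those ends was not tested. The letters CTTTCC, which overlap the pyrimidine runs, stood on the sense strand within 50 bases of the start in 14 member windows (34.1%), against 4.4% of all windows. In the stretch from 250 bases before to 50 after the start, the core of ETS family motifs, CGGAAG on either strand, occurred in 19 of 41 member promoters (46.3%) and in 16.6% of all promoters. TATAAA on either strand occurred in 6 of 41 member promoters (14.6%) and in 14.2% of all promoters.

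Rpl6, a protein of the large subunit, was higher in Dahl S kidneys. Its normalized signal was 4420.5, 4574 and 4743 on the Dahl S arrays and 3051, 3255 and 3374 on the Lewis arrays. The lowest Dahl S array stood well above the highest Lewis array. The difference was 0.50 (SE 0.06, limma adjusted p = 8.58e-05), a 1.42-fold higher signal in Dahl S. Scaled to a common median it was 0.37 (adjusted p = 0.0134), and to a common trimmed mean 0.38 (adjusted p = 0.00359). In the deposited values without normalization, where the median of all tested probe sets was 0.41, the difference was 0.80 and did not pass the threshold (adjusted p = 0.103). Rpl6 was called when any 1 of the 6 arrays was left out, with differences of 0.46 to 0.55.

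Rpl6 was higher in Dahl S relative to the other ribosomal protein probe sets of the same array. A shared scale factor hardly moves this quantity. The result is not separate support, because Rpl6 had the highest difference of the 48 tested members after quantile normalization. Its log2 value minus the median of the other members was -0.04, 0.02 and 0.09 in Dahl S and -0.34, -0.35 and -0.26 in Lewis. The Lewis arrays all lay below the Dahl S arrays, and the means differed by 0.34, or by 0.33 to 0.34 under the other 4 scalings tried. For a single value such as this, a two-sided exact permutation test of 3 against 3 arrays cannot give a p below 0.1. The same quantity differed by 0.07 for Rpl35a and by 0.06 for Rps24 and for Rpsa, and was not computed for the other members. Scaled to a common median, the dim Rpl7 probe set 1375788_at (0.48) and Rps27l (0.40) had larger strain differences than Rpl6 (0.37). Neither of those 2 passed the threshold.

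Rpl3, a core protein of the large subunit close to the site of peptide bond formation, had a bright and a dim probe set that went opposite ways. The bright one, 1371300_at, had signals of 6179, 5923 and 5717 in Dahl S and 4992, 4982 and 5250 in Lewis after normalization, and all Dahl S values lay above all Lewis values. It was called higher (difference 0.23, SE 0.05, limma adjusted p = 0.0103). The dim one, 1396049_x_at, had signals of 144, 158 and 132 in Dahl S and 271, 167 and 208 in Lewis, where the 3 Dahl S arrays lay below the 3 Lewis arrays and the Lewis arrays were widely spread. It was called lower (difference -0.50, SE 0.15, limma adjusted p = 0.0363). Without Dahl S rat 1 the bright probe set was not called (adjusted p = 0.0562), and the dim one was called only without Lewis rat 2 among the 6 fits that left out 1 array, with differences of -0.66 to -0.34. The suffix x_at marks probe sets with probes that also match other sequences. Scaled to a common median, the bright probe set's difference was 0.02 (adjusted p = 0.901) and the dim one's -0.48 (adjusted p = 0.0257).

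Rpl35a and Rpl21 were each about 1.19-fold higher in Dahl S. Rpl35a, one of the genes mutated in human Diamond-Blackfan anaemia, had normalized signals of 4564, 4755 and 4656 in Dahl S and 3834, 3899 and 4040.5 in Lewis. The strains did not overlap (difference 0.25, SE 0.05, limma adjusted p = 0.00591). For Rpl21 the signals were 2826, 3006 and 2821 in Dahl S and 2621, 2428 and 2207 in Lewis, again without overlap (difference 0.26, SE 0.07, limma adjusted p = 0.0266). Rpl35a was called whichever array was left out, while Rpl21 was not called without Dahl S rat 1, 2 or 3 or Lewis rat 2 or 3 (adjusted p = 0.0601 to 0.122). Neither passed the threshold when arrays were scaled to a common median. The differences were then 0.11 (adjusted p = 0.406) for Rpl35a and 0.15 (adjusted p = 0.286) for Rpl21. Without the variance trend neither passed, with a limma adjusted p = 0.0709 for Rpl35a and 0.103 for Rpl21.

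Rpl7a, Rpl23 and Rpl27a completed the large subunit genes called higher. The Rpl7a signal averaged 7002 ± 33.1 in Dahl S and 6046 ± 417 in Lewis (SD, n = 3 each), a difference of 0.21 with a limma adjusted p = 0.0207. Scaled to a common median the sign of Rpl7a turned, to -0.03. Rpl23, which in mammalian cells is known to bind the ubiquitin ligase Mdm2, averaged 4748 ± 124 in Dahl S and 4119 ± 176 in Lewis (SD, n = 3 each). Rpl27a averaged 5319 ± 44.2 in Dahl S and 4679 ± 271 in Lewis (SD, n = 3 each). The differences of Rpl23 and Rpl27a were 0.20 and 0.19, and with a common median they were 0.06 and 0.02, both short of the threshold. None of Rpl7a, Rpl23 and Rpl27a was called when Dahl S rat 1, 2 or 3 was left out (adjusted p = 0.0643 to 0.154), nor was Rpl27a without Lewis rat 2 (adjusted p = 0.0934).

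Several large subunit proteins with well-known separate roles did not pass the threshold. Rpl5 and Rpl11, which bind Mdm2 together with an RNA of the large subunit, differed by 0.06 (SE 0.07) and 0.02 (SE 0.05). Rplp0, the base of the ribosomal stalk and a common reference gene in PCR assays, had signals of 5267, 5495 and 5467 in Dahl S and 5007, 5333 and 5214 in Lewis. Its ranges overlapped (difference 0.06, SE 0.05). Rpl22, Rpl41 and Rpl39 differed by 0.06, 0.05 and -0.07. Rpl39, whose SE of 0.26 was the largest among the members, had signals of 76.5, 167 and 178 in Dahl S and 192, 99.8 and 140 in Lewis. Scaled to a common median the signs of Rplp0, Rpl5, Rpl11, Rpl22 and Rpl41 turned to differences between -0.17 and -0.10, none past the threshold. Rpl13a, which takes part in translational silencing in human monocytes, lay just outside the threshold. Its signals of 4024, 3905 and 3822 in Dahl S and 3602, 3519 and 3354 in Lewis did not overlap, and the difference was 0.17 with a limma adjusted p = 0.0589, or 0.0210 without Lewis rat 1. Scaled to a common median the difference of Rpl13a was 0.01 (adjusted p = 0.960), and to a common trimmed mean 0.02 (adjusted p = 0.889).

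In the small subunit, Rps24, another gene of Diamond-Blackfan anaemia, had signals of 5168, 4901 and 5189 in Dahl S and 4219, 4188 and 4443 in Lewis on its bright probe set, 1369966_a_at. The strains did not overlap, and the difference of 0.25 (SE 0.05) had a limma adjusted p = 0.00662, or 0.0511 without Dahl S rat 3. With a common median it was 0.09, short of the threshold. The dim probe set of Rps24, 1390494_at, read 81.5, 88.4 and 87.6 in Dahl S and 93.5, 91.7 and 81.1 in Lewis, which overlap, and differed by -0.04 (SE 0.12). Rps15a averaged 4420 ± 65.9 in Dahl S and 3687 ± 470 in Lewis (SD, n = 3 each), a difference of 0.27 with a limma adjusted p = 0.0394. Its Lewis spread came mainly from Lewis rat 1, at 3153 against 4040.5 and 3867 for the other Lewis rats. Rps15a was not called without Dahl S rat 1, 2 or 3 (adjusted p = 0.0951 to 0.128), nor with a common median, where its difference was 0.14.

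Rpsa, a small subunit protein also known as a receptor for laminin, was covered by 3 probe sets. The brightest, 1367569_at, read 4665, 4496 and 4420.5 in Dahl S and 3875, 3998 and 3708 in Lewis, a difference of 0.23 (SE 0.05, limma adjusted p = 0.0118). The second, 1388244_s_at, read 3216, 3148 and 2969 in Dahl S and 2485, 2700.1 and 2387 in Lewis, a difference of 0.30 (SE 0.06, limma adjusted p = 0.00694). Dahl S lay above Lewis without overlap on both. The second was called whichever array was left out, and the brightest was not called without Dahl S rat 1 (adjusted p = 0.0675) or 2 (adjusted p = 0.0522). The third, 1371189_x_at, overlapped by a single Lewis array, with 909, 863 and 923 in Dahl S and 758, 867 and 786 in Lewis, and its difference of 0.16 did not pass the threshold. Scaled to a common median the 3 differences were 0.09, 0.17 and 0.15, in the order given, and none passed the threshold. Without the variance trend none of the 3 passed, the second having a limma adjusted p = 0.0501.

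Rps3a and Rps23, which sits at the decoding centre, were also called higher, with differences of 0.19 (limma adjusted p = 0.0468) and 0.16 (limma adjusted p = 0.0479). Scaled to a common median both signs turned, to -0.04 for each. Rps3a was called only without Lewis rat 2, and Rps23 only without Lewis rat 1, among the 6 fits that left out 1 array (adjusted p = 0.0309 to 0.173 and 0.0396 to 0.187). Rps3, at the entry of the messenger RNA, and Rps6, the substrate of the S6 kinases, did not pass the threshold. Rps6 read 5441, 5128 and 5075 in Dahl S and 3899, 5007 and 5373 in Lewis, and Rps3 read 3990.3, 3730.4 and 3959 in Dahl S and 2896, 3442 and 4066 in Lewis. In both genes Lewis rat 1 was the lowest array, while Lewis rat 3 reached the Dahl S range. Without Lewis rat 3 the difference of Rps3 was 0.30 and passed the threshold (limma adjusted p = 0.0254), while without Lewis rat 1 it was 0.06 (adjusted p = 0.607) and with a common median 0.05 (adjusted p = 0.846). The sign of Rps6 turned to -0.02 when arrays were scaled to a common median.

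Rps4y2, a gene for a form of the small subunit protein S4, was the only gene called lower. Its normalized signal was 120.1, 138 and 126 in Dahl S and 160.006, 175 and 185 in Lewis. Every Dahl S array lay below every Lewis array (difference -0.39, SE 0.11, limma adjusted p = 0.0253), and the call held with a common median at -0.37 (adjusted p = 0.0414). It was lost without Dahl S rat 1 or 3 or Lewis rat 2 or 3 (adjusted p = 0.0646 to 0.113). In the deposited values without normalization its difference was 0.02. Rps4x, its close relative, had no probe set that met the rule, and whether the Rps4y2 probes also read Rps4x was not tested. Rps27l, a relative of Rps27, read 217, 173 and 146 in Dahl S and 109, 127 and 164 in Lewis. Those ranges overlapped, and the difference of 0.38 (SE 0.16) had a limma adjusted p = 0.126, or 0.0427 without Lewis rat 3.

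**Figure D2:**
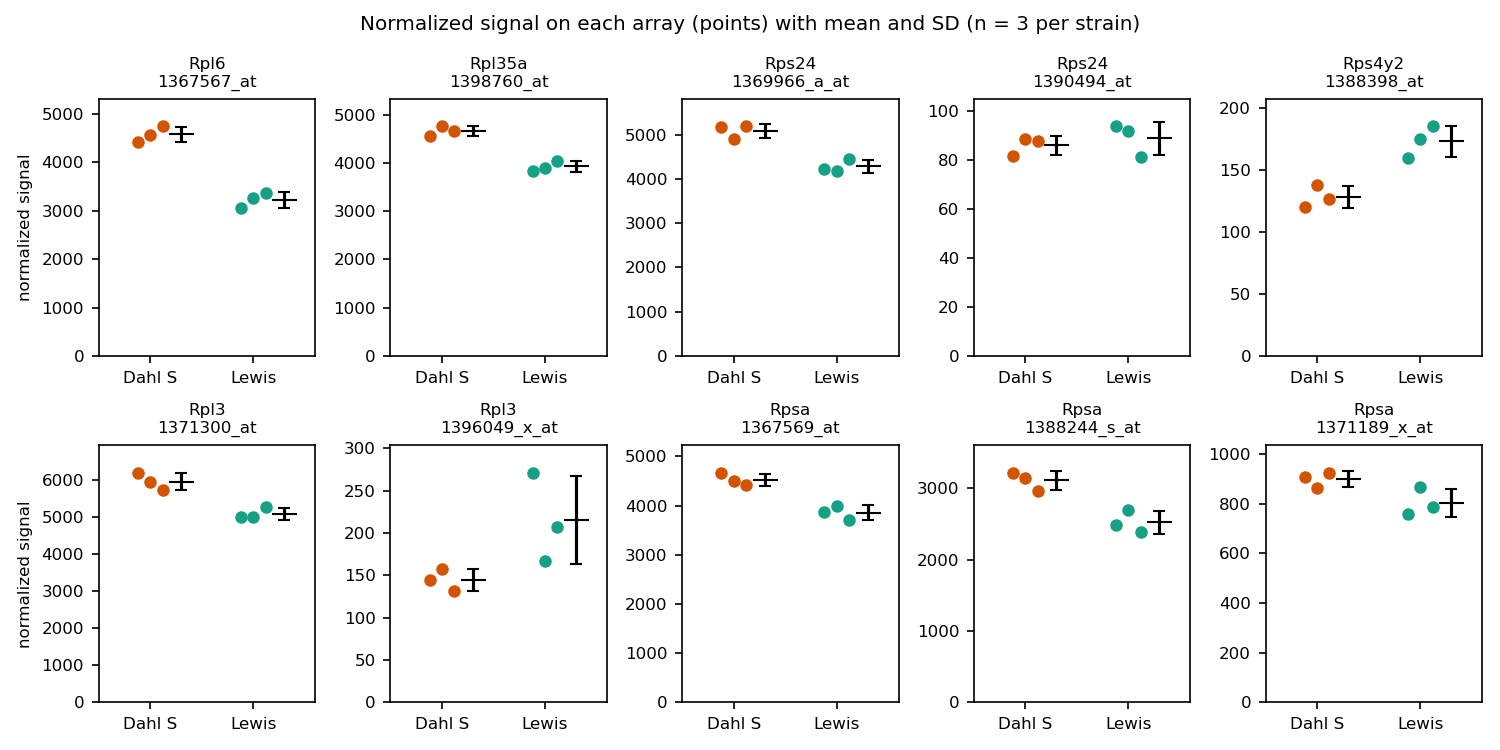
Normalized signal (vertical axes, each starting at 0) of Rpl6, Rpl35a, Rps24, Rps4y2, Rpl3 and Rpsa probe sets on the 3 Dahl S arrays (orange, left) and the 3 Lewis arrays (green, right), with mean and SD beside the points. The Rpl6 arrays of the 2 strains are the furthest apart in relation to their SD, and the dim probe sets of Rps24 and Rpl3 do not follow the bright ones of the same gene.

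Probe sets within a gene were compared by testing whether the strain difference of another probe set departed from that of the brightest one. Over all genes, 3.24% of 3116 such pairs differed. Of 6 pairs in 5 ribosomal protein genes, 1 passed, Rpl3 (-0.73, SE 0.17, limma adjusted p = 0.0483), and it did not pass when any of Dahl S rat 1, 2 or 3 or Lewis rat 1 or 3 was left out (adjusted p = 0.0727 to 0.190), or with a common median (-0.50, adjusted p = 0.176). For Rps24 the dim probe set departed by -0.29 (SE 0.13, adjusted p = 0.285). For Rpl7 the dim probe set, 1375788_at, departed upward by 0.36 (SE 0.18, adjusted p = 0.311). The 2 further Rpsa pairs departed by 0.07 and -0.07, and Rpl7l1 by 0.10. The second probe set of Rpl14 was too dim to test.

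The 48 tested members differed in brightness. Of them 39 belonged to the brightest 5% of tested probe sets. All 39 had a difference above 0 after quantile normalization, with a median of 0.14, and 13 were called higher and none lower. Among all tested probe sets of the brightest 5%, 12.5% were called higher and 12.2% lower. The other 9 members, among them the dim probe sets of Rpl3, Rpl7 and Rps24, had 2 called lower and none higher, with a median of -0.04. Over all tested probe sets 7.75% were called lower and 8.5% higher. Both lower calls, in Rpl3 and Rps4y2, were lost in most fits that left out 1 array.

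The sign of the members' shift moved with the scaling. The members of the brightest 5% had a median of 0.14 against 0.00 for the other probe sets of that range after quantile normalization, and 0.11 against -0.04 after cyclic loess. With arrays scaled to a common median the medians were -0.02 against -0.15, and with a common trimmed mean -0.01 against -0.14. In the deposited values they were 0.41 against 0.29, with 0.41 for all tested probe sets. The members' median thus stood 0.13 to 0.15 above that of the others under all 5 scalings. That gap was computed after the data had been seen and was not tested. The common median, the common trimmed mean and the deposited values differ only by a factor per array. Such a factor hardly moves the gap, so these scalings are not separate checks of it. The members were brighter than the others of that range, with a median log2 signal of 12.13 against 11.59 after quantile normalization, so brightness was not matched. In the brightest 1%, where the 13 members had a median log2 signal of 12.46 against 12.61 for the 145 others, the gap was 0.15 after quantile normalization and 0.23 with a common median. Of the other probe sets of the range, 19.7% lay above the members' median after quantile normalization and 27.0% with a common median.

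**Figure D3:**
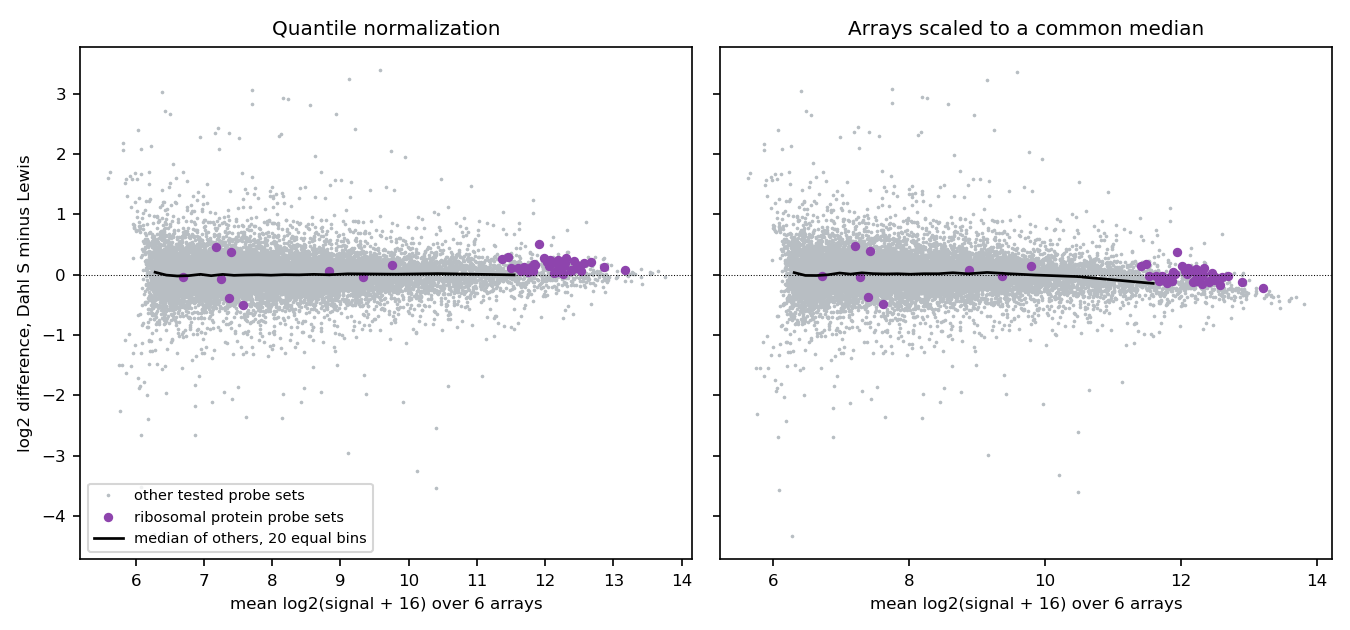
Log2 difference (Dahl S minus Lewis, vertical) against mean log2(signal + 16) over the 6 arrays (horizontal) for all tested probe sets, after quantile normalization (left) and with arrays scaled to a common median (right); purple points are ribosomal protein probe sets and the line is the median of the others in 20 bins of equal size. In the right panel the line bends downward at the bright end, where 39 of the 48 members lie.

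**Figure D4:**
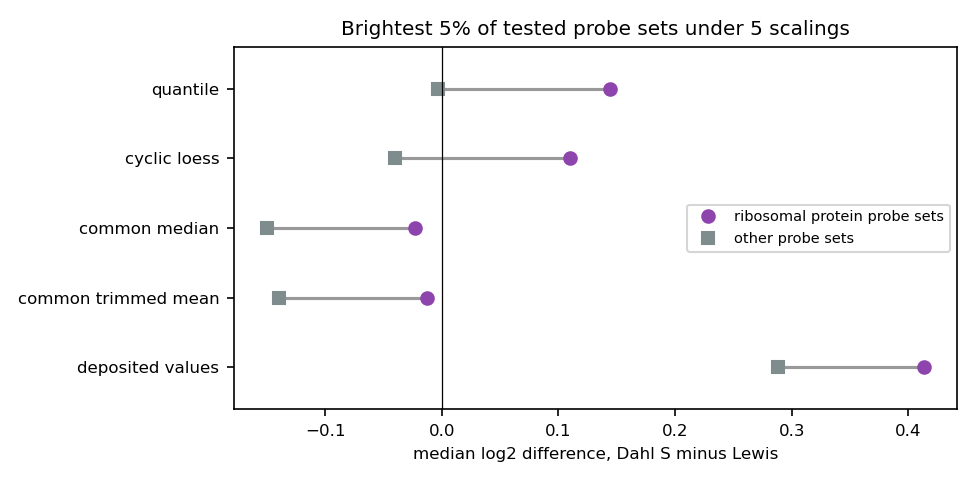
Median log2 difference (Dahl S minus Lewis, horizontal axis) of the ribosomal protein probe sets (circles) and of the other probe sets (squares) in the brightest 5% of tested probe sets under 5 scalings of the arrays (rows). Both medians move with the scaling, and the members' median is 0.13 to 0.15 above the others' in each row. The common median, common trimmed mean and deposited rows differ only by a factor per array, which hardly moves that gap.

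Measures of the deposited values that are free of any scale factor did not all separate the strains. Member probe sets held 2.23%, 2.13% and 2.22% of the total deposited signal on the Dahl S arrays and 2.16%, 2.14% and 2.11% on the Lewis arrays, which overlap. After quantile normalization, which is itself a scaling, the shares were 2.32%, 2.27% and 2.27% in Dahl S and 2.02%, 2.09% and 2.09% in Lewis, without overlap. The tested members' median percentile rank in the deposited signal was 99.372, 99.378 and 99.344 in Dahl S. In Lewis it was 99.085, 99.195 and 99.15, so these ranks, which a scale factor leaves unchanged, did not overlap. The median normalized signal of the members also depends on the normalization. It was 4531, 4549 and 4471 on the Dahl S arrays and 3854, 4101 and 4000 on the Lewis arrays.

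The Lewis arrays varied more than the Dahl S arrays, over all probe sets as among the members. Across the 3 arrays of a strain, the median SD of the members' log2 values was 0.05 in Dahl S and 0.09 in Lewis, and the SD was larger in Dahl S for 10 members and in Lewis for 38 (79.2%). Over all tested probe sets the median SD was 0.09 in Dahl S and 0.14 in Lewis, and it was larger in Lewis for 70%. Among the other probe sets of the brightest 5% it was larger in Lewis for 74.3%. Dahl S rat 1 was the highest of the 6 arrays for 22 members, and Lewis rat 1 the lowest for 22. For another 6 members Lewis rat 1 was the highest array. Rpl37a, a large subunit protein, showed the second largest Lewis SD, with signals of 6049, 5267 and 5441 in Dahl S and 3364, 5743 and 4992 in Lewis, and its difference of 0.28 did not pass the threshold (SE 0.14, limma adjusted p = 0.219). Without Lewis rat 1 the difference of Rpl37a was 0.05 (adjusted p = 0.639), and with a common median it was 0.12 (adjusted p = 0.676). Leaving out Lewis rat 1 left 15 members called higher, against 9.27% of all tested probe sets. Leaving out Dahl S rat 1, 2 or 3 left 4, 5 and 5 members called higher, against 4.52%, 4.65% and 4.25% of all.

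Markers of other cell types moved with the strains in the same RNA. Over all tested genes 9.04% were called higher and 7.62% lower. Of 15 tested leukocyte markers 12 were called higher in Dahl S and none lower. The summed signal of all 19 on the array, tested or not, was 11735 to 12115 in Dahl S and 9337 to 10155 in Lewis. Of 7 tested fibroblast markers 6 were called higher and none lower. All 8 on the array summed to 6996 to 7083 in Dahl S and 4178 to 4779 in Lewis. Of 4 tested erythrocyte markers 3 were called higher and none lower. All 6 on the array summed to 6135 to 6594 in Dahl S and 4428 to 5451 in Lewis. Their part in the ribosomal protein result was not tested. In RNA of a whole organ, a change in the number of cells of one type and a change in RNA per cell cannot be told apart.

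Ribosomal protein probe sets that carry several gene symbols and were left out for that reason were fitted as well. Of 36 such probe sets 35 were tested, 5 were called higher and none lower, and their median was 0.13, where 8.5% of all tested probe sets were called higher and 7.75% lower. Rack1, a protein of the small subunit outside the naming rule, had signals of 3289, 3059 and 3070.2 in Dahl S and 2884, 2796 and 2714 in Lewis. The strains did not overlap, but the difference of 0.16 did not pass the threshold (SE 0.06, limma adjusted p = 0.0747). Of 73 tested genes for proteins of the mitochondrial ribosome 3 were called higher and 1 lower, with a median of -0.00, against 9.04% higher and 7.62% lower over all genes. The contrast between the 2 kinds of ribosome was not tested.

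Ribosome assembly factors included the widest difference of the genes of ribosome production. Gtpbp4, a nucleolar GTPase that works in assembly of the large subunit, read 533, 541 and 565 in Dahl S and 3289, 3216 and 3235 in Lewis on its brighter probe set, 1372869_at, a difference of -2.54 (SE 0.06, limma adjusted p = 1.98e-10). The second probe set, 1370144_at, read 370.4, 330.3 and 338 in Dahl S and 3358, 3570.3 and 3389 in Lewis, a difference of -3.26. The strains were far apart on both. Of 60 tested assembly genes 7 were called higher and 2 lower, with a median of 0.08, against the same 9.04% and 7.62% over all genes. The higher ones included Ltv1 (0.43), an export factor of the small subunit, Nhp2 (0.36), a protein of the RNA-modifying particles of the box H/ACA kind, and Nop56 (0.31), a core protein of the box C/D particles. None of the 7 was called in the fit without Dahl S rat 3, while Gtpbp4 was called in every fit tried, with differences of -2.90 to -2.18.

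Of 40 tested translation factors 6 were called higher and none lower, with a median of 0.11. Eif2b1, part of the exchange factor that recycles the initiation factor Eif2, was higher by 0.42 (limma adjusted p = 0.00368), and Eif2s1, the Eif2 subunit whose phosphorylation restrains initiation, by 0.41 (limma adjusted p = 0.00827). The elongation factor subunit Eef1b2 and the factor Eif5a were higher by 0.32 and 0.26, and with a common median by 0.17 and 0.16, short of the threshold. Eif2b1 was called whichever array was left out, and Eif2s1 was not called without Dahl S rat 1 (adjusted p = 0.0548). Leaving out Dahl S rat 1, 2 or 3 left 2 to 3 of the translation factors called. A further list, called here TOR and S6 kinases, held TOR signalling genes, genes with Rps6k symbols and Myc family genes. Of its 25 tested genes 1 was called higher and none lower, with a median of 0.02. The called gene was Rps6ka5, a kinase of the nucleus that was listed by its symbol. Its difference was 0.77 (SE 0.15, limma adjusted p = 0.00408) on the probe set 1398582_at. Its second probe set, 1382271_at, was too dim to test and read 37.6, 60.3 and 50.9 in Dahl S and 55.1, 69.0 and 43.7 in Lewis, which overlap. The shares called over all genes, 9.04% higher and 7.62% lower, compare with 6 of 40 translation factors and 1 of 25 genes of the TOR and S6 kinase list called higher.

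**Figure D5:**
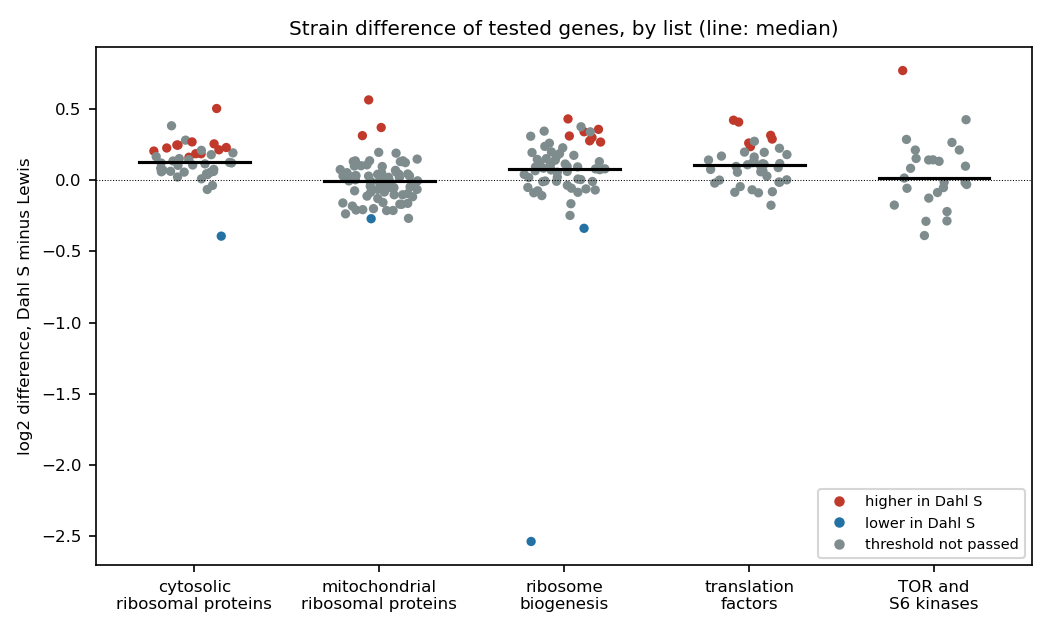
Log2 difference (Dahl S minus Lewis, quantile-normalized, vertical axis) of each tested gene in 5 lists, one column per list, with a line at the list's median; red points were called higher and blue points lower. The cytosolic ribosomal protein genes lie close together with a median of 0.13, the mitochondrial ones around -0.00, and Gtpbp4 stands apart at -2.54.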

How the data were processed

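The members and gene lists were chosen with earlier results of these data known. The deposited table held 1 linear signal intensity per probe set and array, computed by the authors with GeneChip Operating Software version 1.4, per the labels; its scaling target is not given in the sources used here. After 57 control probe sets were removed, log2(intensity + 16) was quantile-normalized and tested with limma 3.58.1 in R 4.3.3 (eBayes with a variance trend, two-sided, Benjamini-Hochberg over all tested probe sets). Because all arrays share 1 distribution after this step, a shift common to most probe sets is invisible, and log2(signal + 16) understates changes of dim probe sets. Pair tests used the per-array difference between probe sets of 1 gene. Gene symbols came from the platform annotation, where 20826 probe sets had 1 symbol and 436 had several; 46 of the 48 member genes were found in the RefSeq table. On simulated data for 3 Dahl S against 3 Lewis arrays (15672 probe sets tested), 56.2% of log2 changes of 0.5 and 0% of those of 0.25 were recovered, and 3 of 128 calls were false. The data themselves gave 2567 calls, so the adjusted threshold in the simulation was stricter and these shares may not carry over. Named genes were the 10 largest called differences per direction without overlap, genes with a called pair, a fixed list, and up to 4 called genes from each other list; further genes were named after their values were seen. The number of arrays limits the precision. Groups came from the sample titles. The series' design text mentions 3 independent experiments, but no label ties the replicate numbers to them, and the deviations of same-numbered arrays correlated at -0.05, -0.10 and 0.11, so the numbers were not treated as pairs. Alternatives changed the normalization, pseudocount, filter, variance model, probe set choice and arrays used.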

Additional observations from a re-analysis of the deposited data

How the results depend on the processing

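Against 13 member probe sets called higher, the count was 0 without normalization, 1 with a common median, 1 with a common trimmed mean (chosen after seeing the data), 6 with cyclic loess, 4 without the filter on dim probe sets, 1 without the variance trend, and 4 to 15 when 1 array was left out. Of all tested probe sets 4.13% were called higher without normalization and 7.62% with a common median. That share was 8.95% with a trimmed mean, 8.41% with cyclic loess, 3.5% without the filter and 7.59% without the variance trend. With 1 array left out it was 4.25% to 9.27%. Rpl6 kept its call under 15 of 16 alternatives, the exception being no normalization. Against 2 called lower, the count was 0 without normalization and without the filter, 0 with a stricter filter, which removed both probe sets so that neither was tested, 1 with a trimmed mean, without the variance trend and without the s_at and x_at probe sets, and 0 to 2 with 1 array left out. Of all tested probe sets 0.291% were called lower without normalization, 3.05% without the filter and 9.99% with the stricter filter. That share was 7.63% with a trimmed mean, 7.01% without the variance trend and 4.62% to 7.99% with 1 array left out. The members' median log2 difference of 0.13 became 0.41 without normalization, -0.024 with a common median, -0.014 with a trimmed mean and 0.095 with cyclic loess. For the gene counts that follow, the share over all genes is given only for the main setting, 9.04% higher and 7.62% lower. Against 12 genes called higher, there were 0 without normalization, 1 with a common median, 1 with a trimmed mean, 5 with cyclic loess, 3 without the filter, 1 without the variance trend, and 3 to 14 with 1 array left out. Against 1 gene called lower, there were 0 without normalization and without the filter, 0 with a stricter filter, under which Rps4y2 was not tested, and 0 to 1 with 1 array left out. The called Rpl3 pair was lost (0 pairs) without normalization, with a common median, a trimmed mean, no pseudocount or no filter, and with a stricter filter (0 pairs) its dim probe set was not tested; 0 to 1 pairs were called with 1 array left out.

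The sign turned for Rpl3 with the mean of its probe sets (log2 difference -0.14), for Rpl7a with a common median (-0.030) and a trimmed mean (-0.019), and for Rps4y2 without normalization (0.022). Among ribosome assembly genes, against 7 called higher there were 0 without normalization, 3 without the filter or the variance trend, and 0 to 9 with 1 array left out. Against 2 called lower there was 1 without normalization, with a common median, without the filter and with the replicate block, and 1 to 3 with 1 array left out. Their median of 0.08 was 0.51 without normalization and 0.16 with the stricter filter. Among translation factors, against 6 called higher there were 0 without normalization, 2 with a common median, 3 with a trimmed mean, 2 without the variance trend, and 2 to 8 with 1 array left out. Their median of 0.11 was 0.48 without normalization and 0.065 with a common median. Among TOR and S6 kinase genes, against 1 called higher there were 2 with a common median, cyclic loess, a trimmed mean, a pseudocount of 64, no variance trend or the mean of probe sets, 0 with the stricter filter, under which Rps6ka5 was not tested, and 1 to 3 with 1 array left out, while 0 to 2 were called lower; the median of 0.02 was 0.46 without normalization. Apart from the probe sets named as removed, the cause of these changes was not tested.

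No label says what the replicate numbers share, so they were not treated as pairs. With the number as a replicate block, 11 member probe sets were called higher and 2 lower, and 10 genes higher and 1 lower; the block moved no other count here by over 1.5 times except that of assembly genes called lower. In data simulated over all probe sets no log2 change of 0.25 was recovered with 3 arrays per strain. That simulation gave 128 calls against 2567 in the data, so its adjusted threshold was stricter. Its shares therefore may not carry over to these data. Among the bright members, with a median SE of 0.06, the smallest called difference was 0.16 and some larger ones were not called.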
